A study of Mus musculus with 2 samples.

Results

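The SR and hnRNP splicing factors were followed in the control RNA-Seq of the TTP study, in macrophages that carry or lack the mRNA-destabilizing protein tristetraprolin (TTP, gene *Zfp36*). Members were all rows of the expression table whose symbol starts with Srsf and a digit or with Hnrnp, or is *Ptbp1*, *Ptbp2* or *Ptbp3*, without *Hnrnpd* and without symbols that carry the pseudogene mark -ps. This rule found 31 rows among 37451 genes, namely 12 rows of SR genes, 17 of hnRNP genes and 2 of PTB genes. *Srsf2* has 2 of the 12 SR rows under different Ensembl identifiers, so that the 31 rows stand for 30 symbols. The mouse genes listed under the older symbols *Hnrpll*, *Hnrpdl* and *Rod1* (a synonym of *Ptbp3*) did not meet the rule.

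The libraries came from bone marrow-derived macrophages (BMDMs) of 7- to 9-week-old littermate mice, grown with CSF-1 from L929 cells. WT BMDMs were from C57BL/6 mice, and ΔM BMDMs from C57BL/6 TTP fl/fl LysMCre mice, in which Cre is expressed from the lysozyme M locus of myeloid cells. Cells of both genotypes received 100 μM 4-thiouridine (4sU), a uridine analog that is built into new RNA, for 16 h and 10 ng/ml lipopolysaccharide (LPS) for 6 h. The protocol gives 6 h, whereas the titles of both libraries end in LPS7. There was 1 library per genotype and the number of mice behind each was not given in the sources used here, so no difference between the genotypes below has a replicate check or a p-value.

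SR proteins bind exons through RNA recognition motifs and recruit the splicing machinery through a domain rich in arginine-serine (RS) dipeptides, whose serines are phosphorylated by the SRPK and CLK kinases. Heterogeneous nuclear ribonucleoproteins (hnRNPs) coat nascent RNA and often act against SR proteins at the same exons, and PTB proteins bind pyrimidine-rich stretches near 3′ splice sites. Many genes of these families control their own level by splicing in exons that expose the mRNA to nonsense-mediated decay. In LPS-stimulated macrophages alternative splicing is part of the response, and some hnRNPs bind AU-rich mRNAs of the kind that TTP binds.

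The values are FPKMs, which count fragments per kilobase of exon relative to all mapped fragments, so that levels of different genes can be compared per length. The targeted gene *Zfp36* was at 65.3 FPKM in WT against 16.7 FPKM in ΔM. All 9 macrophage markers found in the table were above 2 FPKM in both libraries, with a sum of 4061 FPKM in WT against 2908 FPKM in ΔM. The highest single marker value was 2481 FPKM in WT and 1356 FPKM in ΔM, so that 1 marker weighed heavily on each sum. Of 31 markers of 6 other cell types, 29 were below 1 FPKM in both libraries. The exceptions were *Cd4* at 1.03 and 0.77 FPKM and the neutrophil gene *S100a8* at 50.7 and 100 FPKM in WT and ΔM. The 8 neutrophil markers summed to 50.8 and 100.5 FPKM, nearly all of it *S100a8*, and 4 of them were at 0 in both libraries. The part of these marker differences in the values below was not tested, and in bulk RNA fewer cells of a type cannot be told apart from less RNA per cell. Steps between low FPKMs placed the depth at about 37200000 fragments in WT and 32900000 in ΔM, from which 95% counting intervals were calculated. These cover counting error only.

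Sequences of 2 kinds bear on how the members were measured and on TTP. The first is near-identical copies of a member elsewhere in the genome, because only uniquely mapped reads were kept. The stretches below are from the coding sequences of *Srsf5* (chr12:82050720-82050819, plus strand) and *Hnrnpk* (chr13:58495886-58495985, minus strand), each beside its processed copy, *Gm12966* (chr4:129576901-129577000, plus strand) and *Gm7964* (chr7:90905221-90905320, plus strand), all in NCBIM37 (mm9). Capitals mark the bases that differ, 3 of 100 in each pair. Each pair was picked as the one with the most differing bases among the coding stretches compared. It is thus not typical, since 32.1% of 100-nt windows of *Srsf5* and 38.2% of those of *Hnrnpk* were identical to another locus.
Srsf5: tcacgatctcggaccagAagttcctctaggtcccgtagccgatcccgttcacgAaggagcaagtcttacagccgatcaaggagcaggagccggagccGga
Gm12966: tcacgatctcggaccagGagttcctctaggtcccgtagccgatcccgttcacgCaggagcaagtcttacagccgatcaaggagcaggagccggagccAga
Hnrnpk: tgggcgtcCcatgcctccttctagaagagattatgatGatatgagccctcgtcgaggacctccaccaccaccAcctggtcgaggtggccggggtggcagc
Gm7964: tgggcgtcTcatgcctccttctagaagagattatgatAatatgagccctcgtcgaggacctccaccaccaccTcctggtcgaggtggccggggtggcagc

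The second is the AU-rich heptamer TATTTAT, a form of the elements to which TTP binds, searched on the sense strand of the longest annotated 3′ UTR of each gene. It was found in 5 of the 29 members with an annotated 3′ UTR (17.2%), against 27.0% of 7935 protein-coding genes with a 3′ UTR and a mean of at least 1 FPKM. The 29 members were taken at any level. Among members past that minimum, 4 held the heptamer and 21 did not. *Srsf12* held 3 sites, *Srsf10* 2 sites, and *Srsf7*, *Hnrnpc* and *Ptbp1* held 1 each. The sites of the 4 expressed members are shown with 10 bases on either side, the heptamer in capitals. They lie at chr17:80600550-80600576 (minus strand, *Srsf7*), chr4:135423721-135423747 and chr4:135424724-135424750 (plus strand, *Srsf10*), chr14:52693122-52693148 (minus strand, *Hnrnpc*) and chr10:79326910-79326936 (plus strand, *Ptbp1*) of NCBIM37.
Srsf7: ttattggccaTATTTATatgggcctgt
Srsf10, site nearer the stop codon: gttcaatggaTATTTATtgaaccctta
Srsf10, site farther from it: ttactaagtgTATTTATaccatttacg
Hnrnpc: ttgggtattgTATTTATtcaggtgact
Ptbp1: agagtgtaaaTATTTATgattttatac

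Most of the family was expressed in these macrophages. Of the 31 rows, 25 averaged 1 FPKM or more over both libraries, the minimum used for the counts below. These were 10 SR, 14 hnRNP and 1 PTB rows. Their means ran from 1.21 FPKM (*Srsf10*) to 53.0 FPKM (*Hnrnpl*), and *Hnrnpl* lay above 91.0% of the 8078 protein-coding genes past the same minimum. The summed FPKM of the 17 hnRNP rows was 304.9 in WT against 236.9 in ΔM. The 12 SR rows summed to 143.4 and 128.1. The hnRNP sum was thus larger than the SR sum in both libraries. Without *Hnrnph1* the hnRNP sum was 238.6 in WT and 212.8 in ΔM, so that a single gene held most of the difference between the libraries in that class.

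**Figure D1:**
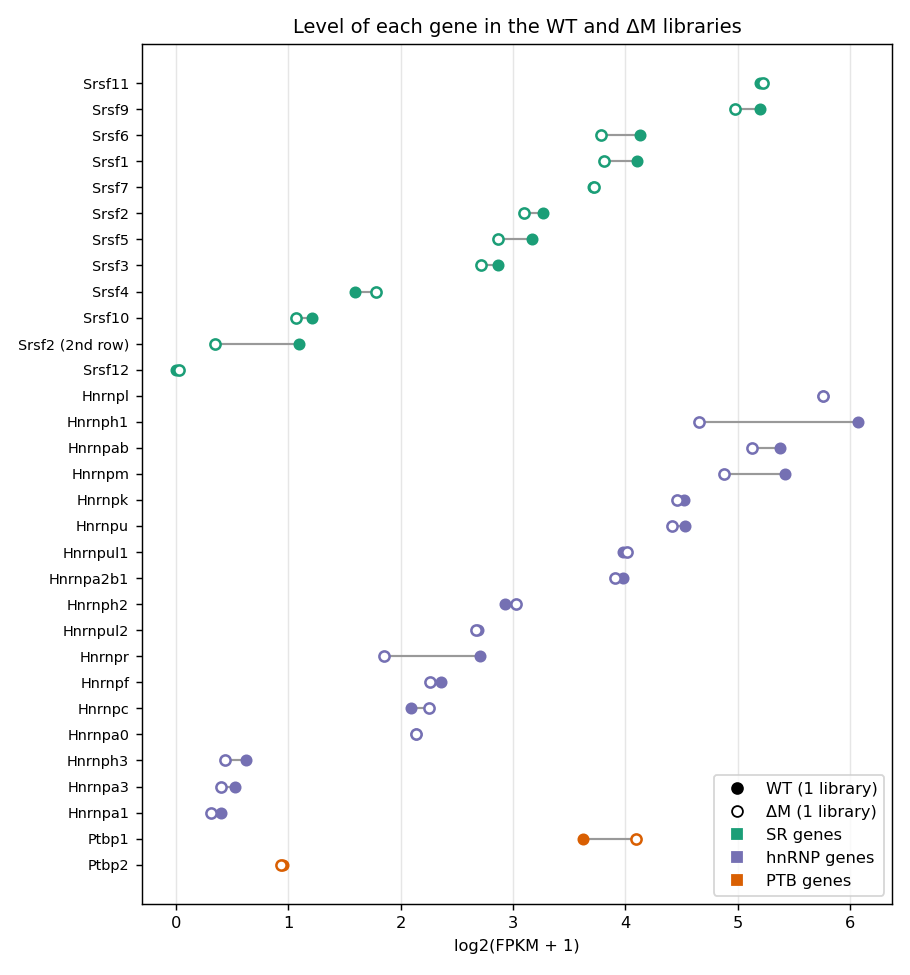
Level of each of the 31 rows on a log2(FPKM + 1) axis, filled points for the WT library and open points for the ΔM library (1 library each), colored by class and ordered by mean within a class. *Hnrnph1* (66.3 and 24.1 FPKM) shows the widest gap, and the points of *Hnrnpl* (52.9 and 53.1 FPKM) coincide.

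The difference between the libraries was described as the log2 ratio of ΔM to WT after adding 1 FPKM to both values, which understates differences of low genes. Of the 25 rows past the minimum, 16 (64.0%) were lower in ΔM and 9 were higher, against 50.2% lower among the protein-coding genes. The median log2 ratio was -0.10 over the members and -0.0015 over the protein-coding genes. At a 1.2-fold difference or more, 6 members (24.0%) were lower in ΔM, where 18.9% of protein-coding genes were, and 1 (4.00%) was higher, where 18.0% were. The share of members past the fold on the lower side was thus close to that of the background. At 1.5-fold the members were 2 lower and 0 higher, beside 5.36% and 4.82% of protein-coding genes. The counting interval of the ratio lay wholly on 1 side of 0 for 10 members, 9 of them lower and 1 higher, beside 29.2% of 8050 protein-coding genes wholly lower and 26.8% wholly higher.

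**Figure D2:**
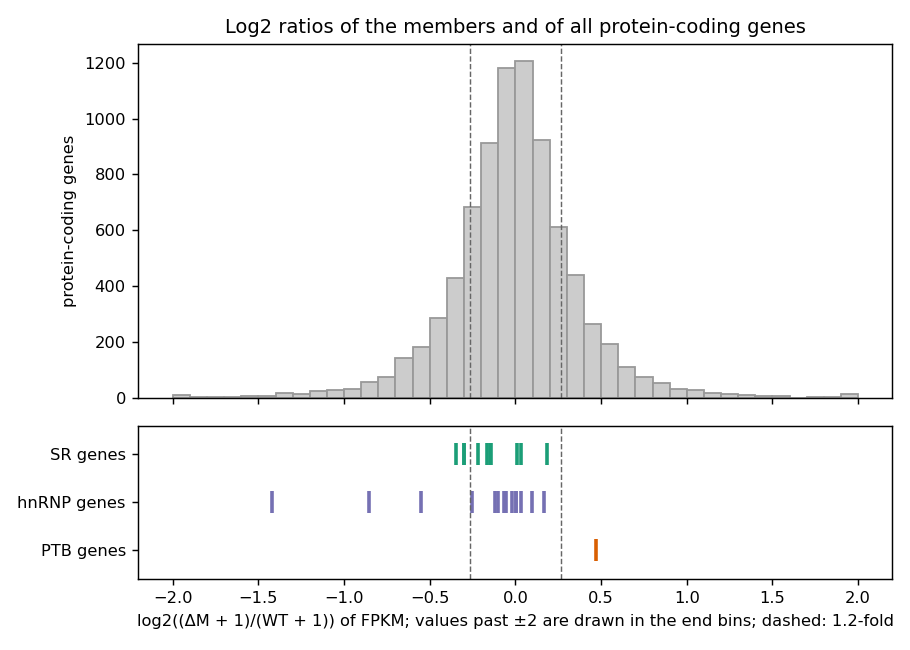
Log2 ratios of ΔM to WT after adding 1 FPKM, as a histogram of 8078 protein-coding genes averaging 1 FPKM or more (top, bins of the ratio against number of genes) and as 1 tick per member in each class (bottom), with dashed lines at 1.2-fold. The SR ticks lie between -0.35 and 0.18, whereas 3 hnRNP ticks lie apart on the lower side.

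Among the SR genes the differences were small and mostly toward lower values in ΔM. Of 10 rows past the minimum, 7 were lower and 3 higher, the median log2 ratio being -0.16 and the values running from -0.35 to 0.18. The 3 that were at least 1.2-fold lower were *Srsf6*, *Srsf1* and *Srsf5*, 30.0% of the rows, where 18.9% of protein-coding genes were. None of these 10 rows reached 1.5-fold in either direction.

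*Srsf6*, a regulator of alternative exons, was at 16.5 FPKM in WT against 12.8 FPKM in ΔM, with a log2 ratio of -0.35. Its ratio without the added 1 FPKM was -0.37, with a counting interval from -0.47 to -0.27. *Srsf1*, the founding SR protein, was at 16.22 and 12.99 FPKM, with a log2 ratio of -0.30 and an interval from -0.43 to -0.21 around -0.32. For both genes the interval lay below 0, and neither had a 100-nt window that is identical elsewhere in the genome. *Srsf5* was at 7.99 and 6.29 FPKM, with a log2 ratio of -0.30 and an interval from -0.58 to -0.12 around -0.35. This gene was less well measured, because 97.1% of its windows matched another locus at 95 or more of 100 bases, and its copy *Gm12966*, shown above, was listed at 7.86 and 6.10 FPKM. Gene and copy thus had nearly the same level in each library, and their reads cannot be told apart with certainty.

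The most abundant SR genes were *Srsf11* and *Srsf9*. *Srsf11*, an SR-like protein that contacts the 3′ splice site factor U2AF, was at 35.7 FPKM in WT against 36.5 FPKM in ΔM, and its counting interval from -0.06 to 0.13 included 0. *Srsf9*, a short SR protein, was at 35.6 and 30.5 FPKM, with a log2 ratio of -0.22 and an interval from -0.36 to -0.09, below the 1.2-fold but beyond counting error. The pair had the same level in WT, and only *Srsf9* was lower in ΔM beyond counting error, although the difference between the 2 genes was not tested.

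*Srsf7*, an SR protein with a zinc knuckle that also takes part in mRNA export, was at 12.1 FPKM in WT against 12.2 FPKM in ΔM. *Srsf2*, which binds exonic enhancers in the nucleus, was at 8.61 and 7.57 FPKM, with an interval from -0.38 to 0.01. *Srsf3*, the shortest SR protein at 164 residues, was at 6.28 and 5.57 FPKM, with an interval from -0.36 to 0.01. All 3 intervals included 0. Of the less abundant genes, *Srsf4* was at 2.02 and 2.43 FPKM and *Srsf10*, a splicing repressor when dephosphorylated, at 1.32 and 1.10 FPKM. Their intervals ran from -0.06 to 0.59 and from -0.64 to 0.11, so that differences of 1.2-fold were not detectable at this depth.

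Below the minimum lay *Srsf12*, listed at 0 FPKM in WT against 0.02 FPKM in ΔM, which is about 1 fragment. The other was the second *Srsf2* row (ENSMUSG00000093603), at 1.13 and 0.27 FPKM. It spans the same 3194 bases as the main *Srsf2* gene (ENSMUSG00000034120, chr11:116711215-116714408) and is missing from the GENCODE M1 annotation used here, so that its fragments could not be estimated. Its fold difference of 1.68 was larger than that of any other SR row, but how fragments were shared between the 2 rows is not known. A plus-strand gene, *1110005A03Rik*, overlaps the same 3194 bases and was at 1.07 and 1.23 FPKM.

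**Figure D3:**
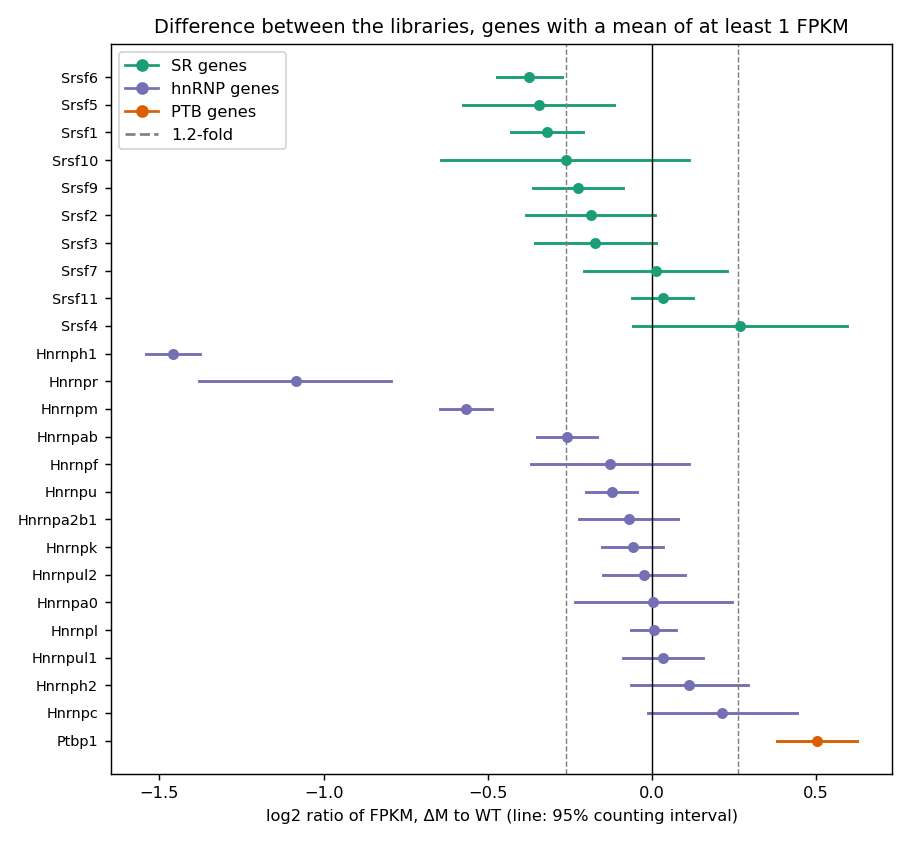
Log2 ratio of ΔM to WT without an added value (points) with its 95% counting interval (lines) for the 25 members averaging 1 FPKM or more, grouped by class, with dashed lines at 1.2-fold. The lines of *Hnrnph1*, *Hnrnpr* and *Hnrnpm* lie farthest to the left, *Hnrnpm* overlapping the low ends of *Srsf10* and *Srsf5*, and that of *Ptbp1* lies wholly to the right of 0.

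Most hnRNP genes differed little, and 3 were at least 1.2-fold lower in ΔM. Of 14 rows past the minimum, 9 were lower and 5 higher, the median log2 ratio being -0.06 and the values running from -1.42 to 0.17. Lower by at least 1.2-fold were *Hnrnph1*, *Hnrnpr* and *Hnrnpm*, 21.4% of the rows, where 18.9% of protein-coding genes were. Of these 3, *Hnrnph1* and *Hnrnpr* passed 1.5-fold. None was higher by 1.2-fold, where 18.0% of protein-coding genes were.

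*Hnrnph1* (chr11:50190492-50200030, plus strand) encodes a protein that binds G-rich runs in introns and exons. It was the highest of all members in WT, at 66.3 FPKM, and at 24.1 FPKM in ΔM. The log2 ratio was -1.42, a 2.68-fold difference, and the interval ran from -1.54 to -1.38, from about 4990 fragments in WT and 1606 in ΔM. Of its windows, 7.88% were identical and 27.6% nearly identical to another locus, over 2 copy loci. Its transcript models include one of 159 nt, shorter than the estimated fragment length of 202 nt, and it was the only member with such a transcript. Among protein-coding genes, 126 had a transcript shorter than the fragments, and 21.4% of these were at least 1.5-fold lower and 24.6% at least 1.5-fold higher in ΔM. Among the other 7952 the shares were 5.11% and 4.50%. The part of the short transcript in the value of *Hnrnph1* was not tested. Its fragment numbers and interval were approximated from that value, not counted, so they carry the same limit. Its paralogs *Hnrnph2* (6.62 and 7.16 FPKM), *Hnrnpf* (4.14 and 3.79 FPKM) and *Hnrnph3* (0.54 and 0.35 FPKM) were all much lower in level, and their counting intervals included 0.

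*Hnrnpr* (chr4:135866857-135896596, plus strand), a relative of the mRNA-binding protein Syncrip, was at 5.53 FPKM in WT against 2.61 FPKM in ΔM. The log2 ratio was -0.86, a 1.81-fold difference, and without the added 1 FPKM it was -1.08 with an interval from -1.38 to -0.79. Of its windows, 13.5% were identical and 76.8% nearly identical to another locus. *Syncrip* itself, which is no member, was at 4.83 and 2.90 FPKM with a log2 ratio of -0.58. Both genes of this pair were thus lower in the ΔM library.

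*Hnrnpm* (chr17:33783178-33823805, minus strand), a regulator of alternative splicing that also binds pre-mRNA broadly, was at 41.9 FPKM in WT against 28.3 FPKM in ΔM. The log2 ratio was -0.55, a 1.46-fold difference, with an interval from -0.64 to -0.49. None of its windows had a near-identical copy. The gene *March2* overlaps it on the same strand by 1169 bases and differed in the opposite direction, at 10.8 FPKM in WT against 18.4 FPKM in ΔM. How fragments in the shared bases were divided between the 2 genes is not known, and their part in either value was not tested.

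The other abundant hnRNP genes differed less. *Hnrnpl*, which binds CA repeats, was at 52.9 and 53.1 FPKM, with an interval from -0.06 to 0.07. *Hnrnpab*, an RNA-binding protein also found on promoters, was at 40.6 and 33.9 FPKM, with a log2 ratio of -0.25 and an interval from -0.35 to -0.17, just under the 1.2-fold. *Hnrnpu*, a scaffold protein of the nucleus, was at 22.1 and 20.3 FPKM, with an interval from -0.20 to -0.05. For *Hnrnpl* the interval thus left room for a change of well under 1.2-fold either way, whereas *Hnrnpab* and *Hnrnpu* were lower by more than counting error. *Hnrnpk*, a KH-domain protein that binds C-rich sequence, was at 21.9 and 21.0 FPKM, and its copy *Gm7964*, shown above, at 9.68 and 8.96 FPKM. *Hnrnpul1* was at 14.8 and 15.1 FPKM and *Hnrnpa2b1*, a reader of short motifs in many RNAs, at 14.7 and 14.0 FPKM. The intervals of these 3 genes all included 0.

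The remaining genes of the class were low. *Hnrnpul2* was at 5.45 FPKM in WT against 5.36 FPKM in ΔM, *Hnrnpc*, which binds uridine-rich tracts in introns, at 3.25 and 3.77 FPKM, and *Hnrnpa0* at 3.39 and 3.40 FPKM. All 3 intervals included 0, and that of *Hnrnpc* ran from -0.01 to 0.44. *Hnrnpa1* and *Hnrnpa3*, shuttling proteins that repress exons, were listed at 0.32 and 0.24 FPKM and at 0.44 and 0.32 FPKM, with intervals about 2 or more log2 units wide.

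Of the PTB genes, *Ptbp1* was higher in ΔM. *Ptbp1* (chr10:79317172-79327516, plus strand), the repressor of neuronal and muscle exons in most other cells, was at 11.3 FPKM in WT against 16.0 FPKM in ΔM. The log2 ratio was 0.47, a 1.38-fold difference, and without the added 1 FPKM it was 0.50 with an interval from 0.38 to 0.62. It was the only member at least 1.2-fold higher in ΔM. Of its windows, 1.99% were identical and 69.5% nearly identical to another locus, over 5 copy loci, so that its level is less certain than that of a gene without copies. Its TATTTAT site begins 1320 bases into a 3′ UTR of 1577 bases. The antisense transcript *Gm17134* overlaps *Ptbp1* by 498 bases and was at 3.05 FPKM in WT against 1.63 FPKM in ΔM. Whether fragments were counted by strand is not given in the sources used here. *Ptbp2*, the neuronal paralog, was at 0.94 and 0.91 FPKM. *Rod1* (*Ptbp3*), the paralog of hematopoietic cells, was at 126.7 FPKM in WT against 126.8 FPKM in ΔM, above every member in both libraries.

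Across the 4 members past the minimum with TATTTAT in the 3′ UTR, the median log2 ratio was 0.09, with *Ptbp1* as the only gene past 1.2-fold. Across the 21 others it was -0.12, with 6 genes past 1.2-fold, all lower. Protein-coding genes with and without the heptamer had medians of 0.0025 and -0.0052. Of those with it, 19.2% were lower and 19.2% higher by at least 1.2-fold. Of those without it, 18.9% were lower and 17.5% higher. With 4 members on 1 side, no direction can be tied to the heptamer. The heptamer was thus not more frequent among splicing factors than elsewhere, and a match is a description of sequence, not a binding site.

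The low level of *Hnrnpa1* and *Hnrnpa3* went together with copies in the genome. For each gene, 1 annotated coding transcript was divided into windows of 100 nt, so that sequence found only in other transcripts was not covered. Of the windows, 76.7% for *Hnrnpa1* and 81.2% for *Hnrnpa3* were identical to another locus. Their near-identical windows lay at 23 and 54 copy loci. *Hnrnpf* followed with 70.9%. These 3 members had a median mean level of 0.38 FPKM. The 11 members with some but under 50% of windows identical elsewhere had a median of 7.14 FPKM, and the 16 without any identical window 14.5 FPKM. Over the 30 members with windows, Pearson's r between log2(mean FPKM + 1) and the share of identical windows was -0.42 and Spearman's rho was -0.26. The points share libraries and the gene families share sequence, so these are descriptions only. Low members without any such window also occurred, namely *Srsf12*, *Hnrnph3*, *Ptbp2* and *Srsf4*, so that a low value did not always go with copies.

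**Figure D4:**
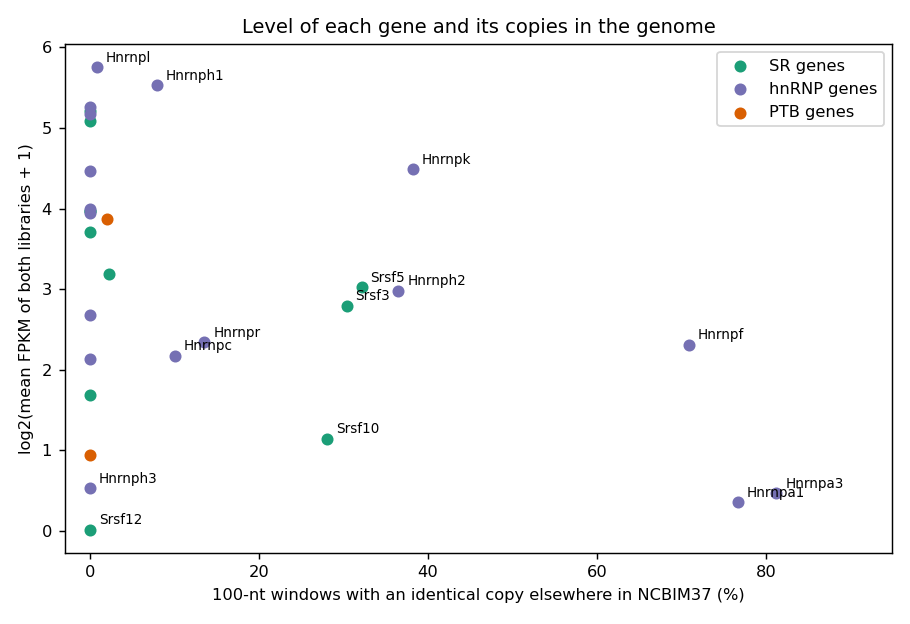
Mean level of each of 30 members as log2(mean FPKM + 1) against the percent of its 100-nt windows that are identical to another locus of NCBIM37, colored by class. *Hnrnpa1* and *Hnrnpa3* lie at the lower right with over 70% identical windows, and the most abundant members lie at the left.

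Copies were also listed with FPKMs of their own. The *Hnrnpa1* copy *Gm10052* was at 0.98 FPKM in WT against 0.45 FPKM in ΔM, above *Hnrnpa1* itself. The *Hnrnpc* copy *Gm12696* was at 1.53 and 2.55 FPKM, the *Hnrnpa2b1* copy *Gm5778* at 3.98 and 3.88 FPKM, and the *Hnrnph2* copy *Gm8775* at 1.73 and 1.66 FPKM. The *Srsf3* copies *Gm12355* and *Gm9761* were at 0.85 and 1.43 FPKM and at 1.33 and 1.71 FPKM, and the *Srsf10* copy *Gm5446* at 0.46 and 0.89 FPKM. Levels of *Hnrnpa1*, *Hnrnpa3*, *Ptbp1*, *Srsf3*, *Srsf5*, *Srsf10*, *Hnrnpc*, *Hnrnpf*, *Hnrnph2*, *Hnrnpk* and *Hnrnpr*, in each of which over 50% of windows had a near-identical copy, are therefore less certain than those of the 12 members without a near-identical window. Without the 14 members that have an identical window, 3 of the 16 remaining members were at least 1.2-fold lower (*Srsf1*, *Srsf6* and *Hnrnpm*) and 0 higher. *Srsf12*, *Hnrnph3* and *Ptbp2* among the 16 lay below the minimum. Of protein-coding genes past the minimum, 18.9% were lower and 18.0% higher by that fold. *Ptbp1* was left out here, since 1.99% of its windows are identical elsewhere.

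Protein and transcript features that the choice of symbols did not use were compared between the classes. RS and SR dipeptides made up 4.05 (*Srsf9*) to 23.5 (*Srsf2*) per 100 residues of the annotated SR proteins, and 0.27 (*Hnrnpm*) to 2.56 (*Hnrnpa2b1*) per 100 residues of the hnRNP proteins, a range that also held Ptbp1 and Ptbp2. *Srsf4* had the most, 106 in 491 residues. RGG tripeptides, the core of the RGG boxes that bind RNA, were most frequent in Hnrnpu and Hnrnpr with 8 each, but their counts overlapped between the classes. A transcript annotated for nonsense-mediated decay was present in 9 of 30 members at any level, 5 of them among the 11 annotated SR genes. Of protein-coding genes past the minimum, 19.1% had one. The 8 such members past the minimum had a median log2 ratio of -0.13 and the 17 without one -0.07, so that both groups lay slightly below 0.

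The other genes of the splicing pathway, on lists chosen with earlier results of these data known, were described in the same way. Past the 1.2-fold were 2 of 12 SR-related genes (16.7%), both lower in ΔM, with a median log2 ratio of -0.10. Among protein-coding genes, 18.9% were lower and 18.0% higher by that fold. *Snrnp70*, the U1 protein contacted by SR proteins, was at 36.7 FPKM in WT against 27.1 FPKM in ΔM with a log2 ratio of -0.43. *Luc7l*, another U1-associated protein, was at 7.68 and 2.71 FPKM. Of 7 SR protein kinases, 3 (42.9%) were lower and 1 (14.3%) higher, with a median of 0.03. *Clk1* was at 22.4 and 16.2 FPKM with a log2 ratio of -0.44, *Clk4* at 13.6 and 7.79 FPKM with -0.73, *Dyrk1a* at 11.1 and 8.49 FPKM, and *Srpk2* at 1.84 and 3.49 FPKM. The closely related kinases *Clk1* and *Clk4* thus were both lower, whereas *Clk2* (7.39 and 8.40 FPKM) and *Clk3* (7.23 and 7.55 FPKM) were not.

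Of 30 other hnRNP-type regulators, 3 (10.0%) were lower and 2 (6.67%) higher by 1.2-fold, beside 18.9% and 18.0% of protein-coding genes. The median log2 ratio was -0.02. *Raly*, an hnRNP C-like protein, was at 43.1 and 31.0 FPKM with a log2 ratio of -0.46, *Fubp1* at 12.03 and 9.69 FPKM with -0.29, and *Syncrip* is given above. *Taf15* was on the other side, at 5.77 and 8.60 FPKM. Of the older symbols, *Hnrpll* was at 7.71 and 7.79 FPKM and *Hnrpdl* at 10.0 and 10.8 FPKM.

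Genes of the core machinery passed the 1.2-fold in both directions, where 18.9% of protein-coding genes were lower and 18.0% higher. Of 13 genes that recognize the 3′ splice site, 1 (7.69%) passed the 1.2-fold, and the median was 0.09. This was *U2af1l4*, at 12.2 FPKM in WT against 23.9 FPKM in ΔM with a log2 ratio of 0.91. Of 11 Sm, U1 and U2 proteins, 3 (27.3%) were higher and 2 (18.2%) lower, with a median of 0.09. *Snrpa1* was at 12.9 and 10.4 FPKM with a log2 ratio of -0.29 and *Snrpa* at 2.87 and 1.37 FPKM, whereas *Snrpc*, *Snrpg* and *Snrpd2*, all under 6 FPKM, were higher. Of 9 factors of nonsense-mediated decay, 1 (11.1%) was higher and 2 (22.2%) lower, with a median of -0.05. *Eif4a3*, a core protein of the exon junction complex, was at 10.4 and 13.8 FPKM with a log2 ratio of 0.37, and the lower ones were *Casc3* (5.37 and 2.64 FPKM) and *Upf3a* (3.65 and 2.84 FPKM). *Luc7l*, *Dyrk1a*, *Srpk2*, *Clk2*, *Clk3*, *Syncrip*, *Taf15*, *Snrpa*, *Snrpc*, *Snrpg*, *Snrpd2*, *Casc3* and *Upf3a* were named after their values had been seen.

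**Figure D5:**
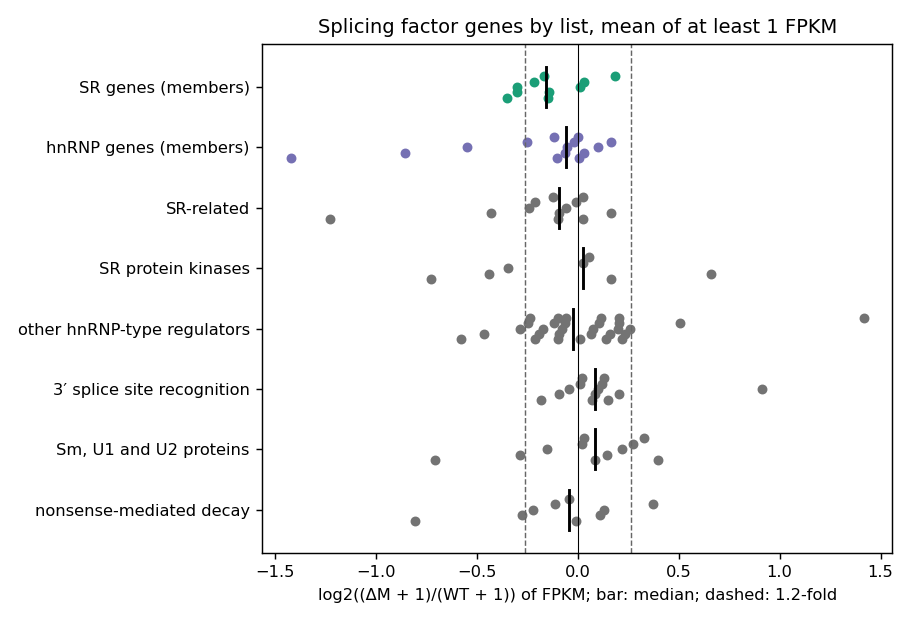
Log2 ratios of ΔM to WT after adding 1 FPKM for each gene (points) of the SR and hnRNP classes and of 6 related lists, with the median of each list as a bar and dashed lines at 1.2-fold, for genes averaging 1 FPKM or more. All medians lie between -0.16 and 0.09.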

How the data were processed

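RNA from 1 WT and 1 ΔM library was rRNA-depleted, fragmented and sequenced as paired ends. The authors trimmed reads with Cutadapt, mapped them to mm9 (NCBI37) with Segemehl, discarded reads that mapped to several places, and ran Cufflinks on the exons of Ensembl genes. The deposited file holds FPKMs with 2 decimals, 1 per gene and library. In ΔM, 1 value was not a number.

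Members and lists were chosen with earlier results of these data known. All members are named with both values, and of each related list the genes at or past 1.2-fold averaging 10 FPKM or more (at most 3 by size of the log2 ratio), or otherwise the 2 with the highest mean. Other named genes are marked. The values of 1 gene of the related lists are not reported here.

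Log2 ratios used a pseudocount of 1 FPKM. Counts used genes averaging 1 FPKM or more, and the background was the protein-coding genes of GENCODE M1, which held 37039 of 37451 identifiers. With 1 library per genotype no test was possible. Depth and fragment length were estimated from the steps between low FPKMs of single-transcript genes, as the pair that brought values closest to whole fragments. At that pair, 94.6% of the values used in WT and 94.8% in ΔM were whole multiples of 1 fragment within 0.2. Evenly spread values would give 40% at a fixed pair, which is not the chance level of a search for the best pair. The search was tested on data simulated under its own model. Fragments of a gene were then approximated from the median length of its annotated protein-coding transcripts, less the estimated fragment length. Windows of 100 nt every 10 nt of 1 annotated coding transcript per gene were aligned to NCBIM37 with minimap2 2.31. Alternatives covered pseudocount, scaling, minimum, fold and background. Scripts ran in Python 3.11.15 (scipy 1.17.1, pandas 2.3.3, numpy 2.4.6, matplotlib 3.10.9).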

Additional observations from a re-analysis of the deposited data

How the results depend on the processing

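No paired analysis was possible because each genotype has 1 library, and for the same reason no replicate could be left out. The median log2 ratios of the SR genes (-0.16) and of the hnRNP genes (-0.06) stayed negative under every pseudocount, scaling, minimum and left-out set tried, from -0.22 to -0.10 and from -0.09 to -0.06. With no minimum, *Ptbp2* joins *Ptbp1* and the PTB median is 0.22 instead of 0.47. At a fold of 1.5 in place of 1.2, 2 members instead of 6 were lower and 0 instead of 1 were higher in ΔM, because the rule is stricter. In an alternative added after the data had been seen, members that have 100-nt windows identical elsewhere were left out. Then 3 were lower and 0 higher, from fewer genes, where 18.9% and 18.0% of protein-coding genes were. Without *Hnrnph1*, also added, 5 were lower and 1 was higher. No member's ratio changed sign. A pseudocount of 0.1 FPKM moved 5 of 30 ratios by more than 0.1 on the log2 scale, among them *Hnrnpr* to -1.05, the second *Srsf2* row to -1.73 and *Hnrnph3* to -0.51, and centring or rescaling moved none of 31 by that much. Depth limits the genes under 3 FPKM, for which differences of 1.2-fold were within counting error.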
